A study of Aconitum japonicum with 4 samples.

Results

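The transcripts described here are the 3 that the pathway annotation of the *Aconitum japonicum* transcriptome assigns to HMGR, 3-hydroxy-3-methylglutaryl-CoA reductase. They were found by their identifiers among the 129760 assembled transcripts, which fall into 100618 Trinity genes. The members are TR50314|c1_g1_i1, with a length of 691 bases, TR50314|c2_g1_i1, with 1630 bases, and TR50314|c2_g1_i5, with 2195 bases. RNA was sequenced from rootlet, mother root, daughter root and leaf. Rootlets are the fibrous roots, the mother root is the main tuber, and daughter roots are the new tubers it forms. The plants were kept in a greenhouse, and no treatment is named. Each tissue has 1 library made from a single biological replicate, so no difference between tissues has a replicate check and no test between tissues was possible. Neither the genotype nor the age of the plants, nor whether the 4 libraries came from the same plant, is given in the sources used here.

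HMGR reduces HMG-CoA to mevalonate at the membrane of the endoplasmic reticulum, and it is widely regarded as the main control point of the cytosolic mevalonate (MVA) pathway. That pathway starts with AACT and HMGS, which build HMG-CoA, and continues after HMGR with MVK, PMK and MVDD, which turn mevalonate into isopentenyl diphosphate (IPP), the building block of terpenoids. Plastids make IPP by a separate route, the methylerythritol phosphate (MEP) pathway, whose entry enzyme is DXS. In *Aconitum*, GGPP made from IPP is the precursor of the diterpene alkaloids, and the tuberous mother and daughter roots are the medicinally used tissues. In plants, HMGR is commonly encoded by a small gene family.

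The libraries held 4492151 assigned fragments in the rootlet, 11801534 in the mother root, 12792781 in the daughter root and 4516426 in the leaf. A level is given as FPKM, the fragments scaled to the length of the transcript and the total of the library. The 95% limits beside a level are exact Poisson limits on its fragments. Limits beside a ratio between tissues are conditional binomial (Clopper-Pearson) limits. All limits cover counting error only, and not the variation between plants or any error in placing fragments that match more than 1 transcript. As a check of the leaf label, 3 photosynthesis transcripts that had not been chosen by tissue summed to 1.13 FPKM in the rootlet, 1.29 in the mother root, 1.07 in the daughter root and 26.5 in the leaf, and 2 of the 3 were highest in the leaf. In the leaf, TR836|c0_g1_i1 held 23.7 FPKM on 44 fragments. TR12495|c0_g1_i1 had 5 leaf fragments and TR17798|c0_g1_i1 had 1, so the check rests mainly on 1 transcript. No markers of the root types were available, so the root labels were not checked in this way.

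Both transcripts of the Trinity gene TR50314|c2_g1 were much lower in the leaf than in each root type, whereas TR50314|c1_g1_i1 was high in the daughter root only. TR50314|c2_g1_i5, the longest of the 3, was measured at 65.8 FPKM in the rootlet library (605 fragments), 64.5 FPKM in the mother root library (1559 fragments), 53.6 FPKM in the daughter root library (1405 fragments) and 3.79 FPKM in the leaf library (35 fragments). The limits were 60.7 to 71.3 FPKM in the rootlet, 61.4 to 67.8 in the mother root, 50.9 to 56.5 in the daughter root and 2.64 to 5.27 in the leaf. The 3 root values thus lay close together, and the leaf value lay far below each of them. The deposited TPM, which sum to the same total in each library, were 50.2 in the rootlet, 50.5 in the mother root, 41.2 in the daughter root and 2.56 in the leaf. In RNA of whole tissues, fewer cells of a type and less RNA per cell cannot be told apart. In the mother root, 97.1% of the transcripts with any fragment had a lower FPKM than TR50314|c2_g1_i5, against 53.4% in the leaf.

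TR50314|c2_g1_i1 was measured at 41.8 FPKM in the rootlet library (278 fragments), 41.2 FPKM in the mother root library (721 fragments), 56.2 FPKM in the daughter root library (1067 fragments) and 7.17 FPKM in the leaf library (48 fragments). Its limits were 37.0 to 46.98 FPKM in the rootlet, 38.3 to 44.3 in the mother root, 52.9 to 59.7 in the daughter root and 5.29 to 9.51 in the leaf. Daughter root was therefore the highest tissue for this transcript, and rootlet and mother root overlapped. Its TPM were 31.9 in the rootlet, 32.3 in the mother root, 43.2 in the daughter root and 4.85 in the leaf. The share of active transcripts below it was 96.5% in the daughter root and 74.3% in the leaf.

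TR50314|c1_g1_i1, described as an HMG-CoA reductase 2 and 31.5% as long as TR50314|c2_g1_i5, was measured at 5.33 FPKM in the rootlet library (13 fragments), 4.06 FPKM in the mother root library (26 fragments), 33.3 FPKM in the daughter root library (232 fragments) and 5.71 FPKM in the leaf library (14 fragments). The limits were 2.84 to 9.12 FPKM in the rootlet, 2.65 to 5.94 in the mother root, 29.2 to 37.9 in the daughter root and 3.12 to 9.59 in the leaf. The daughter root value lay above the others without overlap, and the other 3 tissues could not be told apart at this depth. The TPM of TR50314|c1_g1_i1 were 4.07 in the rootlet, 3.18 in the mother root, 25.6 in the daughter root and 3.86 in the leaf. One fragment of this transcript corresponded to 0.410 FPKM in the rootlet, 0.156 in the mother root, 0.144 in the daughter root and 0.408 in the leaf.

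**Figure D1:**
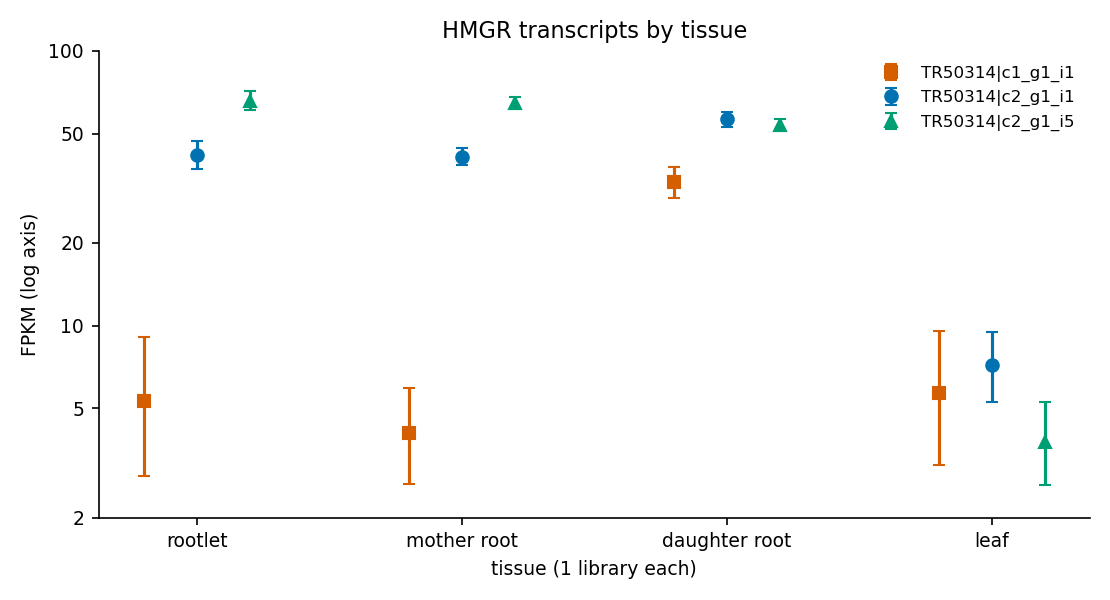
FPKM (log axis) of the 3 HMGR transcripts in the rootlet, mother root, daughter root and leaf, 1 library each, with bars giving exact 95% Poisson limits on the fragments. TR50314|c2_g1_i1 and TR50314|c2_g1_i5 lie between 41.2 and 65.8 FPKM in the roots and at or below 7.17 FPKM in the leaf, while TR50314|c1_g1_i1 reaches 33.3 FPKM in the daughter root and stays at or below 5.71 FPKM elsewhere.

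The first comparison asked how far HMGR in each root type stood above leaf. TR50314|c2_g1_i5 had the highest ratios, of 17.4 (12.4 to 25.2) for rootlet over leaf, 17.04 (12.2 to 24.6) for mother root over leaf and 14.2 (10.1 to 20.4) for daughter root over leaf. For TR50314|c2_g1_i1 the same ratios were 5.82 (4.27 to 8.08), 5.75 (4.29 to 7.87) and 7.84 (5.87 to 10.7). Both transcripts were thus above leaf in every root type by more than counting error. TR50314|c1_g1_i1 had a ratio of 5.84 (3.41 to 10.8) for daughter root over leaf. Its ratios of 0.933 (0.404 to 2.14) for rootlet over leaf and 0.710 (0.357 to 1.47) for mother root over leaf had limits that included 1, so no difference was detectable at this depth.

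These ratios were read against all transcripts with at least 1 FPKM in either library of a pair, on the scale of log2(FPKM + 1), with a 2-fold difference as the threshold. No minimum of fragments was set here, so the shares of all transcripts include transcripts with few fragments, whose ratios are imprecise. For rootlet over leaf, 2 of the 3 HMGR transcripts were at least 2-fold higher and 0 were 2-fold lower, where 23.3% and 42.2% of all transcripts were. For mother root over leaf, again 2 of the 3 were higher and 0 lower, against 22.4% and 31% of all transcripts. For daughter root over leaf, 3 of the 3 were higher and 0 lower, against 19.6% and 39.2%. The log2 ratio of mother root to leaf was 3.77 for TR50314|c2_g1_i5, above 99.2% of all transcripts, 2.37 for TR50314|c2_g1_i1, above 96.7%, and -0.41 for TR50314|c1_g1_i1, above 46.7%. The median over all transcripts in this pair was -0.26 on the same scale. With so few members, these positions describe the 3 transcripts and not a list.

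The second comparison was among the root types. Rootlet and mother root had nearly the same levels of both main transcripts, with a ratio of rootlet to mother root of 1.02 (0.927 to 1.12) for TR50314|c2_g1_i5 and 1.01 (0.879 to 1.17) for TR50314|c2_g1_i1. For TR50314|c1_g1_i1 it was 1.31 (0.620 to 2.65). None of the 3 differed 2-fold in this pair, where 18.5% of all transcripts were higher and 27% lower in the rootlet. Dividing by median-of-ratios factors, which assume that most transcripts do not differ, put the ratio of TR50314|c2_g1_i5 at 1.15 (1.05 to 1.26), so the likeness of rootlet and mother root in FPKM depends on the scaling.

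In FPKM, daughter root differed from both other root types by more than counting error, in a different way for each transcript. For TR50314|c1_g1_i1 the mother root level was 0.122 times (0.0778 to 0.183) that in the daughter root. It was at least 2-fold lower in the mother root, as were 12.2% of all transcripts, while 0 of the 3 HMGR transcripts and 21.7% of all transcripts were 2-fold higher. On the log2 scale this difference was -2.76, and only 0.858% of all transcripts had a lower value. For TR50314|c2_g1_i1 the factor was 0.733 (0.666 to 0.806), and for TR50314|c2_g1_i5 it was 1.20 (1.12 to 1.29). In FPKM, the 2 transcripts of the same Trinity gene therefore differed between mother root and daughter root in opposite directions. The log2 ratio of TR50314|c2_g1_i5 in this pair, 0.26, was close to the median of 0.29 over all transcripts, and with median-of-ratios factors the limits of its ratio, 0.969 to 1.12, included 1.

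The ratios of rootlet to daughter root followed the same pattern. They were 0.160 (0.0839 to 0.279) for TR50314|c1_g1_i1, 0.743 (0.648 to 0.848) for TR50314|c2_g1_i1 and 1.23 (1.11 to 1.35) for TR50314|c2_g1_i5. One of the 3 was 2-fold lower in the rootlet and 0 were 2-fold higher, against 23.9% and 26.6% of all transcripts. The deposited TPM left each of these limits on the same side of 1.

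**Figure D2:**
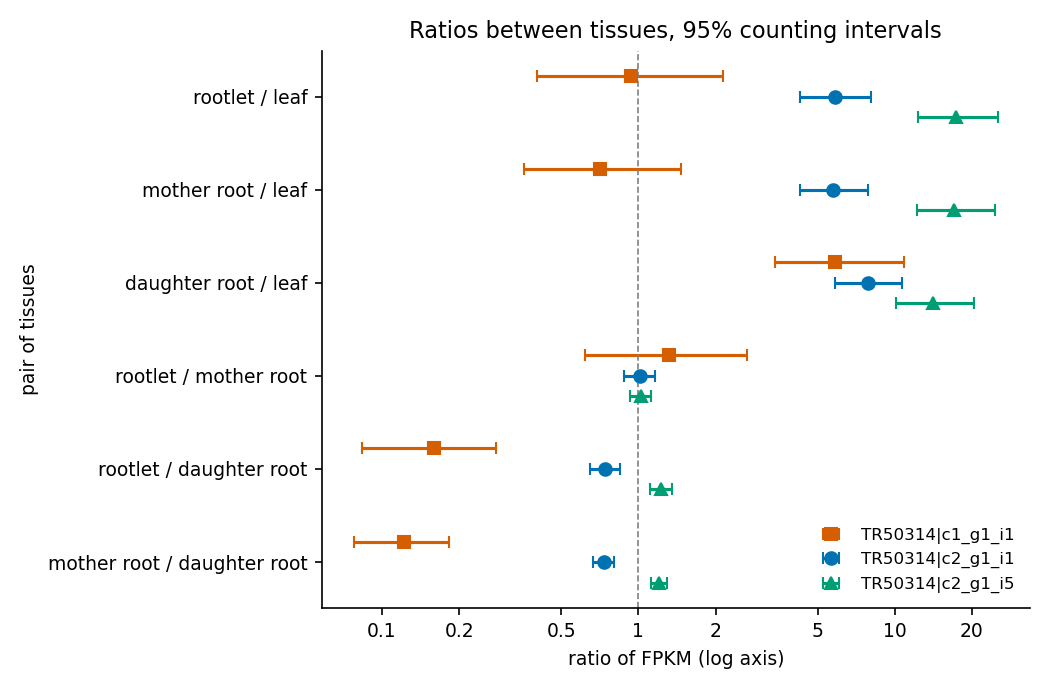
Ratios of FPKM (log axis) for the 6 pairs of tissues and the 3 HMGR transcripts, with 95% conditional binomial limits as bars and a dashed line at 1. Against leaf, TR50314|c2_g1_i5 lies to the right of TR50314|c2_g1_i1, and against daughter root, TR50314|c1_g1_i1 lies at 0.160 for rootlet and 0.122 for mother root.

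The split between the 2 transcripts of TR50314|c2_g1 was compared within each library, where the depth and the scaling between libraries cancel. All expected counts were whole numbers, and how fragments that match both transcripts were placed is not given in the sources used here. TR50314|c2_g1_i5 held 61.2% of the FPKM of the gene in the rootlet (57.7% to 64.6%), 61.0% in the mother root (58.9% to 63.1%), 48.8% in the daughter root (46.8% to 50.8%) and 34.5% in the leaf (24.9% to 45.5%). The longer transcript was thus the main one in the rootlet and mother root and the shorter one in the leaf, while the limits in the daughter root included equal shares. The ratio of TR50314|c2_g1_i5 to TR50314|c2_g1_i1 was 2.98 times as high in the rootlet as in the leaf (1.89 to 4.72) and 2.97 times as high in the mother root as in the leaf (1.90 to 4.63). It was 1.81 times as high in the daughter root as in the leaf (1.16 to 2.81). In the mother root it was 1.64 times that in the daughter root (1.46 to 1.85), and between rootlet and mother root the factor was 1.01 (0.851 to 1.19). The limits of these factors are normal limits on the log scale.

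A change of the main transcript was common among all genes. Of the Trinity genes with several transcripts and at least 50 fragments in both libraries, 28.6% had a different main transcript in the rootlet and in the leaf, and 28.9% in the mother root and in the leaf. Between daughter root and leaf the share was 28.8%, and in this pair TR50314|c2_g1_i1 was the higher of both transcripts in each library. The change at TR50314|c2_g1 between leaf and these 2 root types, rootlet and mother root, is therefore of a kind that 28.6% and 28.9% of such genes showed.

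TR50314|c1_g1_i1 did not keep a fixed relation to the transcripts of TR50314|c2_g1. Its level per length was 0.128 times that of TR50314|c2_g1_i1 in the rootlet (0.0671 to 0.222), 0.0984 times in the mother root (0.0638 to 0.145), 0.593 times in the daughter root (0.512 to 0.684) and 0.796 times in the leaf (0.406 to 1.47). In the leaf, the order of the 3 transcripts rested on few fragments, and the limits of the ratio of TR50314|c1_g1_i1 to TR50314|c2_g1_i5, 0.750 to 2.88, included 1.

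**Figure D3:**
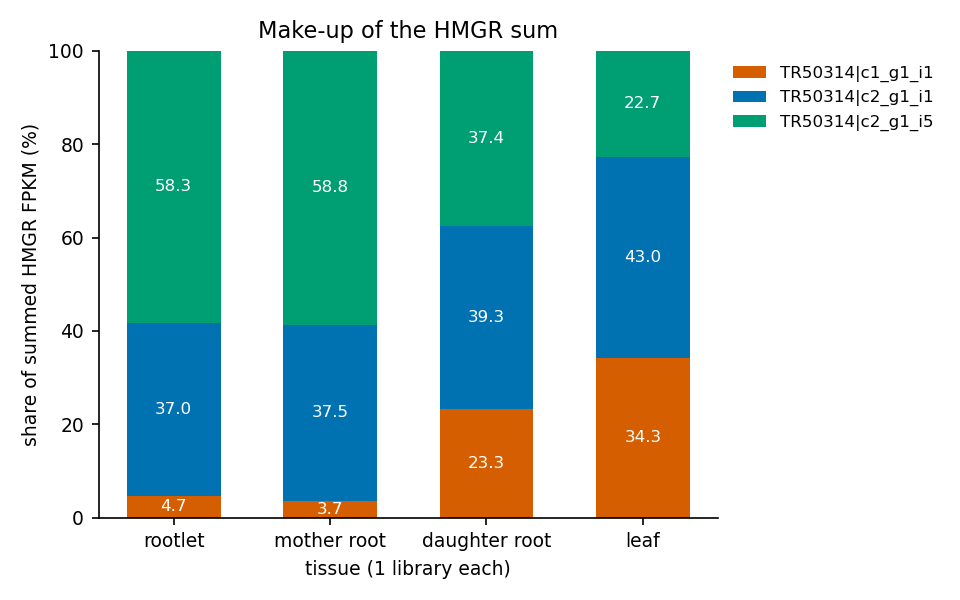
Share (%) of each HMGR transcript in the summed HMGR FPKM of each tissue, 1 library each. TR50314|c2_g1_i5 makes up 58.3% in the rootlet, 58.8% in the mother root, 37.4% in the daughter root and 22.7% in the leaf, and TR50314|c1_g1_i1 makes up 23.3% in the daughter root and 34.3% in the leaf.

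Summed over the 3 transcripts, HMGR stood at 112.9 FPKM in the rootlet (105.3 to 121.2), 109.8 FPKM in the mother root (105.2 to 114.7), 143.2 FPKM in the daughter root (137.1 to 149.6) and 16.7 FPKM in the leaf (13.1 to 21.2). Limits of a sum are gamma limits on the weighted fragments. Daughter root was highest, with a ratio of 0.767 (0.722 to 0.814) for mother root over daughter root and 0.788 (0.727 to 0.855) for rootlet over daughter root. For rootlet over mother root the ratio was 1.03 (0.948 to 1.11) in FPKM and 1.16 (1.07 to 1.26) with median-of-ratios factors. The ratios over leaf were 6.77 (5.33 to 8.60) for rootlet, 6.59 (5.21 to 8.32) for mother root and 8.59 (6.801 to 10.8) for daughter root.

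In FPKM, the excess of daughter root in this sum lay in TR50314|c1_g1_i1. The 2 transcripts of TR50314|c2_g1 alone summed to 107.6 FPKM in the rootlet, 105.8 in the mother root, 109.9 in the daughter root and 11.0 in the leaf. This sum was 0.963 times (0.909 to 1.02) as high in the mother root as in the daughter root, and for rootlet over daughter root the ratio was 0.979 (0.906 to 1.06). The 3 root types thus could not be told apart by the total of TR50314|c2_g1 in FPKM, although they differed in how it was divided. Median-of-ratios factors left the limits for rootlet over daughter root around 1, at 0.957 (0.885 to 1.03), but put mother root at 0.834 times (0.787 to 0.883) daughter root. The ratios of this sum over leaf were 9.81 (7.82 to 12.3) for rootlet, 9.65 (7.73 to 12.0) for mother root and 10.02 (8.03 to 12.5) for daughter root.

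The Trinity cluster TR50314 holds 1 more transcript, TR50314|c0_g1_i1, which is 226 bases long and carries no HMGR assignment. It was measured at 8.55 FPKM in the rootlet (3 fragments), 7.56 FPKM in the mother root (7 fragments), 71.9 FPKM in the daughter root (73 fragments) and 14.2 FPKM in the leaf (5 fragments). Its tissue profile was almost that of TR50314|c1_g1_i1, but the shares outside the daughter root are imprecise. The limits of TR50314|c0_g1_i1 were 1.76 to 25.0 FPKM in the rootlet and 4.61 to 33.1 in the leaf. Profiles were compared as the share of each tissue in the sum of FPKM over the 4 tissues, and the distance of 2 profiles is 0.5 times the sum of their absolute differences, which is 0 for equal and 1 for disjoint profiles. Daughter root held 68.8% of the profile of TR50314|c1_g1_i1 and 70.4% of that of TR50314|c0_g1_i1, and their distance was 0.0363. Of the 33377 other transcripts with at least 50 fragments over the 4 libraries, 0.0330% lay nearer to TR50314|c1_g1_i1. By contrast, the distance of TR50314|c1_g1_i1 to TR50314|c2_g1_i1 was 0.373 and that to TR50314|c2_g1_i5 was 0.5003.

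A daughter root share as high as that of TR50314|c1_g1_i1 was found in 2.71% of the 33378 transcripts with at least 50 fragments. The leaf share was 11.8% for TR50314|c1_g1_i1, 4.90% for TR50314|c2_g1_i1 and 2.02% for TR50314|c2_g1_i5. A leaf share as low as the last was found in 6.97% of these transcripts. TR50314|c2_g1_i1 and TR50314|c2_g1_i5 lay at a distance of 0.127 from each other.

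The profiles were also set against those of the 47 other transcripts of the pathway annotation and 17 cytochrome P450 transcripts, of which 56 had at least 50 fragments over the 4 libraries. With only 4 tissues, many transcripts have like profiles, and the likeness says nothing of a shared function or control. Nearest to TR50314|c2_g1_i1 was TR50920|c0_g1_i1, the transcript of MVDD, which catalyses the last step to IPP, at a distance of 0.0331. Only 37 of the 33377 other transcripts lay nearer to TR50314|c2_g1_i1. The MVDD transcript was measured at 22.3 FPKM in the rootlet, 26.6 FPKM in the mother root, 33.0 FPKM in the daughter root and 5.05 FPKM in the leaf. Next came the MVK transcript TR50024|c0_g1_i3 at 0.116 and the P450 transcript TR52743|c4_g3_i1 at 0.133.

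Nearest to TR50314|c2_g1_i5 were 3 P450 transcripts, TR52743|c4_g3_i1 at a distance of 0.0784, TR47402|c0_g1_i2 at 0.121 and TR52960|c0_g1_i4 at 0.126. P450 enzymes oxidise terpenoid skeletons among many other substrates. The study chose the 17 P450 transcripts for profiles like those of diterpene alkaloids over the same 4 tissues, so they are no independent set. TR52743|c4_g3_i1 was measured at 137.1 FPKM in the rootlet, 173.2 FPKM in the mother root, 112.1 FPKM in the daughter root and 24.4 FPKM in the leaf, and 1.20% of all compared transcripts lay nearer to TR50314|c2_g1_i5 than it did. TR50314|c1_g1_i1 had no listed transcript as near. Its nearest were the ISPD transcript TR39144|c0_g1_i1 of the MEP pathway at 0.251, the AACT transcript TR49281|c2_g1_i10 at 0.266 and the DXS transcript TR54749|c2_g1_i1 at 0.273. Of all compared transcripts, 6.81%, 7.60% and 8.12% lay nearer to TR50314|c1_g1_i1 than these 3, in that order.

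**Figure D4:**
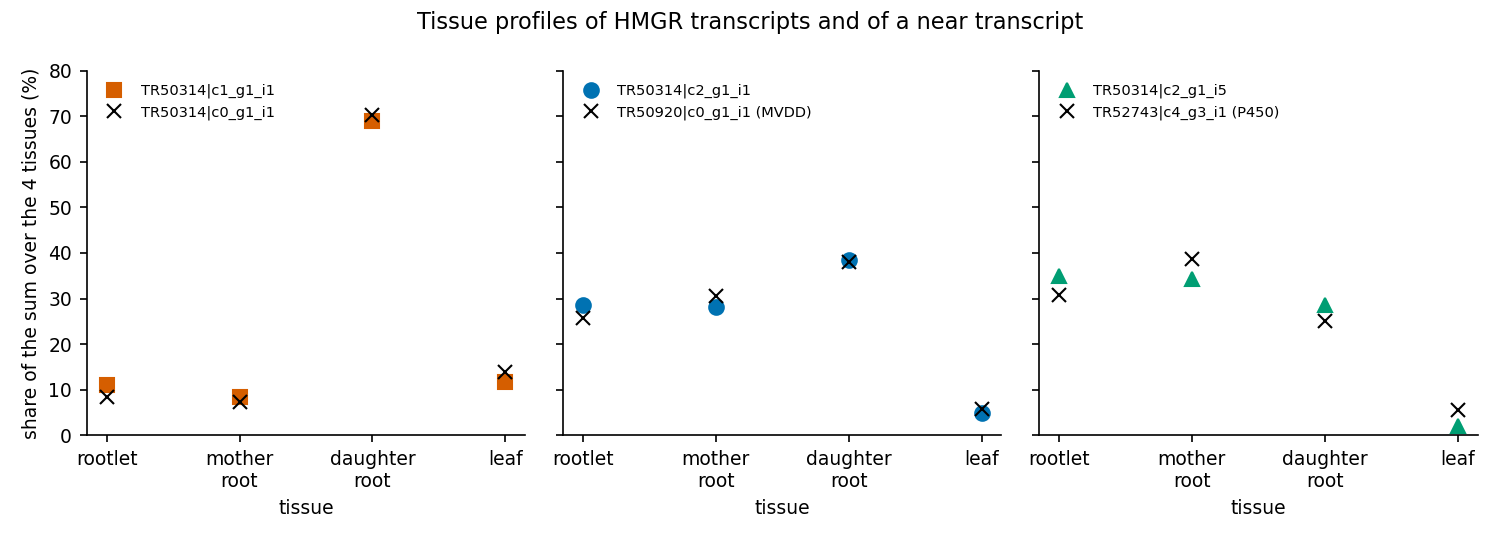
Share (%) of each tissue in the sum of FPKM over rootlet, mother root, daughter root and leaf, for each HMGR transcript (coloured) and a transcript of near profile (cross): TR50314|c0_g1_i1, the MVDD transcript TR50920|c0_g1_i1 and the P450 transcript TR52743|c4_g3_i1. Daughter root holds 68.8% for TR50314|c1_g1_i1, and the profile distances of the pairs are 0.0363, 0.0331 and 0.0784 from left to right.

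Within the MVA pathway, HMGR had the highest summed FPKM of the 6 steps in all 3 root types. The sums cover the transcripts of the pathway annotation only, which the authors selected by length and sequence similarity. They hold 3 transcripts for AACT, 2 for HMGS, 3 for HMGR, 3 for MVK, 1 for PMK and 1 for MVDD. A sum therefore need not be the whole expression of a step. In the leaf, HMGR ranked below AACT. Whether it stood below HMGS by more than counting error depended on 1 HMGS transcript described as a lyase. HMGR made up 44.4% of the summed FPKM of the 13 MVA transcripts in the rootlet, 47.7% in the mother root, 46.4% in the daughter root and 11.5% in the leaf. Without the transcript described as a lyase, these shares were 53.9% in the rootlet, 53.7% in the mother root, 47.7% in the daughter root and 15.1% in the leaf. The ratio of HMGR to the preceding step, HMGS, was 1.88 (1.67 to 2.10) in the rootlet, 3.13 (2.87 to 3.41) in the mother root, 3.83 (3.53 to 4.16) in the daughter root and 0.312 (0.243 to 0.401) in the leaf. Of the 2 HMGS transcripts, TR50259|c0_g1_i1 is the one described as a lyase, so the HMGS sum may hold another enzyme. With TR44745|c0_g1_i1 as the only HMGS transcript, the ratio was 7.24 (5.94 to 8.83) in the rootlet, 11.6 (9.96 to 13.5) in the mother root, 5.03 (4.58 to 5.51) in the daughter root and 0.932 (0.699 to 1.24) in the leaf. The ratio of HMGR to AACT, the thiolase that starts the pathway, was 3.18 (2.72 to 3.72) in the rootlet, 3.19 (2.90 to 3.51) in the mother root, 2.53 (2.33 to 2.74) in the daughter root and 0.329 (0.254 to 0.426) in the leaf. HMGR thus stood above both upstream steps in each root under either HMGS sum. In the leaf it stood below AACT, and below HMGS by more than counting error only where the lyase-described transcript was counted.

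Toward the downstream steps the picture was different. MVK, which phosphorylates mevalonate, was exceeded by HMGR 7.80-fold (6.11 to 9.97) in the rootlet, 8.10-fold (6.90 to 9.51) in the mother root, 7.41-fold (6.51 to 8.44) in the daughter root and 1.498-fold (1.05 to 2.13) in the leaf. PMK, the second kinase, was exceeded 13.0-fold (10.3 to 16.5) in the rootlet, 10.3-fold (9.05 to 11.8) in the mother root, 7.38-fold (6.69 to 8.15) in the daughter root and 1.93-fold (1.40 to 2.67) in the leaf. For MVDD, the ratio varied least among the tissues of the 5 steps, at 5.06 (4.28 to 5.97) in the rootlet, 4.14 (3.76 to 4.55) in the mother root, 4.34 (3.99 to 4.73) in the daughter root and 3.30 (2.23 to 4.89) in the leaf. HMGR and MVDD were the steps with the highest ratio of every root type to leaf among the 6.

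**Figure D5:**
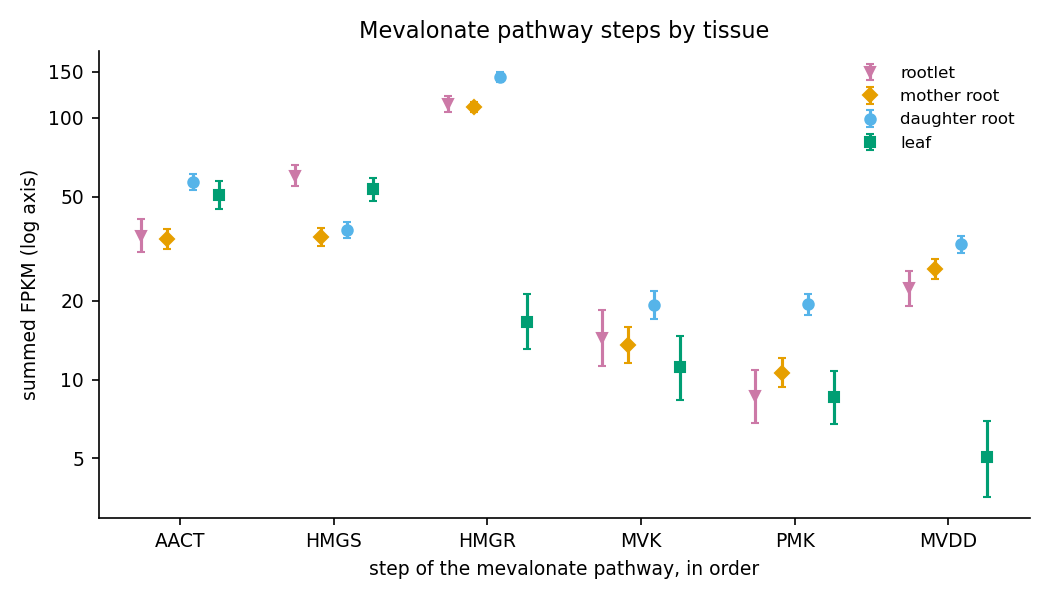
Summed FPKM (log axis) of the transcripts of each MVA pathway step, in pathway order, in the rootlet, mother root, daughter root and leaf, 1 library each, with 95% limits on counting error as bars. HMGR is the highest step in the 3 roots, at 112.9, 109.8 and 143.2 FPKM, and stands at 16.7 FPKM in the leaf, below AACT at 50.7 FPKM and HMGS at 53.4 FPKM, of which TR44745|c0_g1_i1, the HMGS transcript not described as a lyase, holds 17.9 FPKM.

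The 10 other transcripts of the MVA pathway, from AACT, HMGS, MVK, PMK and MVDD, stood nearer to their level in the leaf than the transcripts of TR50314|c2_g1 did. The 10 fall into 6 Trinity genes, so they are not 10 separate genes. For rootlet over leaf, 1 of the 10, MVDD, was at least 2-fold higher and 0 were lower. For mother root over leaf, MVDD was again the 1 higher transcript, and TR49281|c2_g1_i10, an AACT transcript with 8 fragments in the mother root and 17 in the leaf, was the 1 lower. For daughter root over leaf, 2 were higher, MVDD and the PMK transcript TR52617|c1_g1_i4, and 1 was lower, TR50259|c0_g1_i1. At a 1.5-fold threshold the 2 higher transcripts of this pair became 6 of the 10, against 24.5% of all transcripts. The counts at 2-fold stand below or near the shares of all transcripts given above. Those shares had no minimum of fragments, so part of them can be counting error. The median log2 ratio of the 10 was 0.08 for rootlet over leaf, -0.14 for mother root over leaf and 0.64 for daughter root over leaf, against medians of 2.39, 2.37 and 2.81 for the 3 HMGR transcripts and of -0.56, -0.26 and -0.63 over all transcripts. At a minimum of 5 FPKM the median of the 10 was -0.09 for rootlet over leaf, and with TPM it was 0.04 for mother root over leaf.

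Between the root types, most of the 10 other MVA transcripts were, like TR50314|c2_g1_i1, lower in the mother root than in the daughter root by more than counting error. For mother root over daughter root, the limits of the ratio lay below 1 for 8 of the 10, above 1 for 1, TR50259|c0_g1_i1, and included 1 for 1, the MVK transcript TR50024|c0_g1_i3. Of the 8, the MVK transcript TR50024|c0_g1_i4 had an upper limit of 0.998, close to 1. Among all transcripts with at least 50 fragments over the 4 libraries, which include these 10, the limits lay below 1 for 23.1% and above 1 for 35.7%. At the 2-fold threshold, 2 of the 10 were lower in the mother root, the AACT transcript TR49281|c2_g1_i10 and the HMGS transcript TR44745|c0_g1_i1, and 1 was higher, against 12.2% and 21.7% of all transcripts. At 1.5-fold, 5 of the 10 were lower, against 18.9%. The HMGS transcript TR44745|c0_g1_i1 was measured at 15.6 FPKM in the rootlet, 9.46 FPKM in the mother root, 28.5 FPKM in the daughter root and 17.9 FPKM in the leaf. The median log2 ratio for this pair was -0.50 for the 10, -0.44 for the 3 HMGR transcripts and 0.29 for all transcripts. For rootlet over daughter root, 1 of the 10, TR50259|c0_g1_i1, was 2-fold higher and 1, PMK, lower, against 26.6% and 23.9% of all transcripts, with a median of -0.53. For rootlet over mother root 1, TR49281|c2_g1_i10, was higher and 0 lower, against 18.5% and 27%, with a median of 0.05, or -0.03 at a minimum of 5 FPKM. Medians of the HMGR transcripts in these pairs were -0.42 and 0.03, and those of all transcripts 0.14 and -0.17.

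HMGR of the cytosolic route to IPP and DXS of the plastid route were set side by side. The ratio of summed HMGR to the sum of the 8 DXS transcripts was 2.09 (1.76 to 2.47) in the rootlet, 2.51 (2.26 to 2.78) in the mother root, 4.23 (3.86 to 4.62) in the daughter root and 0.0521 (0.0413 to 0.0658) in the leaf. Summed HMGR was thus above summed DXS in every root library and far below it in the leaf, where DXS summed to 319.7 FPKM. The sum does not describe each DXS transcript. TR54749|c2_g1_i1 was higher in the daughter root, at 10.8 FPKM, than in the leaf, at 6.22 FPKM. Levels of the other DXS transcripts are not given here.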

How the data were processed

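The members, lists and rules were chosen with earlier results of these data known. The authors trimmed reads with Trimmomatic, assembled all tissues together with Trinity, removed redundancy with CD-HIT-EST, mapped reads with Bowtie 2 and ran RSEM for abundance. The authors deposited expected counts, TPM and FPKM per transcript. The deposited percent of a gene held by each transcript was 0 or 100 in every library, since each transcript was entered as its own gene, so shares were recomputed from FPKM over the Trinity gene in the transcript name.

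The analysis used scipy 1.17.1, pandas 2.3.3 and numpy 2.4.6 under Python 3.11.15, with matplotlib 3.10.9 for plots. FPKM recomputed from count, effective length and total matched the deposited FPKM within 0.0051 plus 0.1% in every library. Log2 values added 1 to FPKM. Ratios of sums have normal limits on the log scale. Methods were tested on simulated data. With 1 library per tissue, no test was made. Named were the 3 HMGR transcripts, the 10 other MVA transcripts, the rest of cluster TR50314 and, for each HMGR transcript, the 3 listed transcripts of nearest profile. Alternatives were deposited TPM, median-of-ratios factors over 35605 transcripts, equal depth (4492151 fragments, 20 draws, seed 1), other sums, a pseudocount of 0.1, minimums of 0 and 5 FPKM, 1.5-fold, Pearson correlation and, chosen after seeing the data, at least 200 fragments, both scalings of the TR50314|c2_g1 sum and HMGS without TR50259|c0_g1_i1.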

Additional observations from a re-analysis of the deposited data

How the results depend on the processing

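No paired analysis was possible because each tissue has 1 library. Summing all transcripts of the 2 Trinity genes took the same 3 transcripts, so those alternative values could not differ. Counting them, 24 of the 30 alternative values of the summed HMGR ratios stayed within the counting limits. The 6 others left out TR50314|c1_g1_i1, which gave 9.81 for rootlet over leaf, 9.65 for mother root over leaf, 0.979 for rootlet over daughter root and 0.963 for mother root over daughter root, or used median-of-ratios factors, which gave 1.16 for rootlet over mother root and 0.664 for mother root over daughter root. These factors shift the log2 ratio of mother root to daughter root by -0.21 for every transcript, and TPM shifts that of mother root to leaf by 0.21. Of 24 ratios of the 3 transcripts and their sum, TPM moved 0 across the limit of 1 and the factors moved 3. Of the fragments of TR50314|c2_g1, TR50314|c2_g1_i5 held 68.5% in the rootlet, 68.4% in the mother root and 56.8% in the daughter root, higher than its share of FPKM because it is longer. The deposited share column gave no usable value. The 24 alternative medians of the 10 other MVA transcripts kept their sign in every pair with daughter root. In the other pairs the sign changed with the setting. The median was -0.09 for rootlet over leaf and -0.03 for rootlet over mother root at a minimum of 5 FPKM. With TPM it was 0.04 for mother root over leaf. Of the 72 alternative counts, 9 were classed as moved, 7 of them at 1.5-fold. At 1.5-fold, 6 in place of 2 were higher for daughter root over leaf and 5 in place of 2 lower for mother root over daughter root. Not among the 9, 3 in place of 2 were higher for daughter root over leaf with a pseudocount of 0.1. With median-of-ratios factors, 3 in place of 2 were lower for mother root over daughter root. With Pearson correlation, 0 of the 3 nearest transcripts of TR50314|c1_g1_i1 and 1 of the 3 of TR50314|c2_g1_i5 were shared. The leaf values rest on 14, 48 and 35 fragments, and TR50314|c1_g1_i1 on 13 in the rootlet and 26 in the mother root, which limits the precision of these ratios.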
